A study of Mus musculus with 25 samples.

Results

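Chromatin contacts that carried no gene name at either end made up 62550 of the 109776 contacts (57.0%) in the H3K27ac HiChIP lists of TKO embryonic stem cells at 0 h and 24 h of doxycycline. A contact is a pair of 10 kb bins of the mouse genome (build mm10), and it was taken when the authors' gene column read N/A for both bins. The lists held 52047 such contacts at 0 h and 47848 at 24 h, of which 37345 were in both, 14702 in the 0 h list alone and 10503 in the 24 h list alone. For comparison, 39255 contacts carried a gene at 1 bin and 7971 at both bins.

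H3K27ac is the histone acetylation found at active promoters and enhancers, and HiChIP enriches for ligated DNA fragments in which an end lies on the marked chromatin. Enhancers contact promoters, and they also contact each other, so that several enhancers and promoters of a region can come together in a hub. KLF4 is a zinc finger transcription factor of the pluripotency network that binds GC-rich motifs, and it is one of the factors used to reprogramme fibroblasts. Contacts without a gene at either end are where enhancer-to-enhancer contacts would be looked for.

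The TKO libraries (3 at 0 h, 3 at 24 h) came from cells labelled V6.5, an embryonic stem cell line, grown in the inhibitor medium called 2i without doxycycline or with doxycycline for 24 h. The labels do not say which alleles TKO cells lack or what doxycycline induces in them. The other lists came from V6.5 ES cells in 2i (H3K27ac, 2 libraries; KLF4, 4; Hi-C, 2), from passage 3 mouse embryonic fibroblasts, or MEF (H3K27ac, 2; Hi-C, 2), and from MEF cultured with doxycycline and ascorbic acid for 3 days (KLF4, 3, whole culture) or 6 days (KLF4, 4, cells sorted for the surface marker SSEA1). The MEF were made from E13.5 embryos heterozygous for an OKSM reprogramming cassette, the rtTA3 transactivator and an Oct4-GFP reporter, so the uninduced MEF carried the cassette too. Hi-C maps contacts without selection by an antibody.

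The HiChIP libraries held 48.7 to 181 M contacts, and a listed contact had a median of 22 to 35 reads in a TKO library. Levels are the authors' CPM, here the reads of a contact scaled to the contacts of its own chromosome. Expression was not analysed here, so the labelled cell types were not checked against RNA markers. All TKO list entries had at least 3 CPM in each library, a deposited p-value under 0.1 and a called H3K27ac peak of their own time. A contact missing from a list may therefore be weaker, or lack a called peak, and not be absent. TKO libraries 2 and 3 at 0 h (chi-square p = 0.0503, a narrow margin) and 1 and 3 at 24 h (p = 0.0992) did not differ beyond sampling noise and were each counted as 1 sample, which leaves 2 samples a time. In the ES KLF4 libraries, 1 and 2 did not differ beyond noise, nor did 3 and 4, but the former differed from the latter.

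The label was checked against RefSeq, because N/A in the gene column need not mean a bin without a gene start. Of 44340 bins without a gene name, 3147 (7.10%) held a RefSeq gene start and 1358 (3.06%) a protein-coding start. As a result 9537 of the 62550 contacts (15.2%) had a RefSeq start in at least 1 bin and 4161 (6.65%) a protein-coding one. The start table used is incomplete, so these are minimum values. Most contacts were not between genes either: both bins lay in the body of 1 and the same protein-coding gene in 26998 contacts (43.2%), and neither bin touched a protein-coding gene body in 16206 (25.9%). The contacts are therefore called contacts without a named gene.

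MicroRNA genes were among what these bins held. Of 1005 RefSeq hairpins, 332 lay in a bin without a gene name and 289 of these 332 lay in a bin with at least 1 contact without a named gene, over 256 bins. The Mir290 cluster, the main microRNA cluster of mouse ES cells, lay in 2 such bins, chr7:3210001-3220000 with 10 contacts without a named gene and chr7:3220001-3230000 with 8. The mature sequences below show why the cluster's members are grouped: 4 of them share the seed core AAGUGC. The let-7f and miR-98 hairpins, of the let-7 family known from differentiated cells, lay together in chrX:151910001-151920000 with 9 contacts. Capitals mark the seed, bases 2 to 8, and the sequences are from RefSeq (GRCm38.p6). They were chosen after the values were seen.

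miR-290a-3p: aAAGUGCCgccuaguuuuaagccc

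miR-291b-3p: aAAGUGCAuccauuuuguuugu

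miR-294-3p: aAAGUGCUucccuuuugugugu

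miR-295-3p: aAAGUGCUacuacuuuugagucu

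let-7f-5p: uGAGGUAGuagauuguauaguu

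miR-98-5p: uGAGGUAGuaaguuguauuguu

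miR-294-3p and miR-295-3p had the seed AAGUGCU, miR-290a-3p had AAGUGCC and miR-291b-3p AAGUGCA, while let-7f-5p and miR-98-5p shared GAGGUAG. The let-7f and miR-98 bin had no contact in any of the ES, MEF or KLF4 HiChIP lists, but 14 in the ES Hi-C list and 11 in the MEF Hi-C list.

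Protein-coding starts were also found there. Among 17 pluripotency genes with a start in the RefSeq table, 6 had a start in a bin without a gene name that took part in these contacts: Sox2, Esrrb, Nr5a2, Tet1, Fgf4 and Dnmt3l. Sox2 and Esrrb, transcription factors of the pluripotency network, were named by the authors at no bin of the lists used here, and the other 4 were named at another bin. The Sox2 start lies at the edge of its bin, so the window below runs into the next bin, which carried no gene name either. Below are the promoter windows of Sox2 (chr3:34649745-34650044, plus strand) and of Fgf4 (chr7:144861136-144861435, plus strand), the gene of a growth factor made by ES cells, because their contacts are described further on. Each window runs from 250 bases before the start to 50 after it (RefSeq, GRCm38.p6), and capitals mark matches to the KLF-type motif GGGNGNGG or its reverse complement CCNCNCCC.

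Sox2: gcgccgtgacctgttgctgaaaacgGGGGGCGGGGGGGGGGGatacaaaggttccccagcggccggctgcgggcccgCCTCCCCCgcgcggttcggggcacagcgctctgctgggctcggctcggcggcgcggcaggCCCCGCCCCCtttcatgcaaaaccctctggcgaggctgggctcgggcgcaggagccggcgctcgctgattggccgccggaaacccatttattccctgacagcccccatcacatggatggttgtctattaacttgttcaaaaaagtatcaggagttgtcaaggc

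Fgf4: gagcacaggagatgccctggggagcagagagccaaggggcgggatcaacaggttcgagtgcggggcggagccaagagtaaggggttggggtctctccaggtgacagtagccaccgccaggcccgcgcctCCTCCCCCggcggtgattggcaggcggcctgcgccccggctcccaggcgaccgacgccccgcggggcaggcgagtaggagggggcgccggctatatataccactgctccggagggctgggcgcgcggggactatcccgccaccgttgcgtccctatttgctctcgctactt

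The Sox2 window held 9 matches, with overlapping matches counted separately, and the Fgf4 window 1. At least 1 match was present in 16251 of all 32851 promoter windows (49.5%) and in 1555 of the 3449 windows whose start lay in a bin of these contacts (45.1%). A match describes the letters only.

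Contacts without a named gene were the shortest of the classes. Over both lists together their median distance was 20 kb, against 30 kb with a gene at 1 bin and 30 kb with genes at both. Within the 0 h list and within the 24 h list the medians were 20, 20 and 30 kb in the same order. Adjacent bins made up 28.0% of them (Wilson 95% interval 27.7 to 28.4), 26.5% with a gene at 1 bin and 17.6% with genes at both. Contacts of at least 50 kb made up 23.7%, 27.1% and 37.9% in the same order. The intervals cover counting error only, since contacts share bins and libraries. Contacts listed at 0 h alone were longer than those in both lists: 35.8% against 17.96% spanned at least 50 kb. Those listed at 24 h alone lay between, with 27.1%. Because CPM and its cutoff are set by chromosome, the lists reach lower counts on some chromosomes than on others: with 1 count cutoff for all, contacts without a named gene fell to 39420 of 68807, those on chromosome 19 from 3516 to 1140, while chromosome 1 kept its 3009. Ranks across chromosomes rest on this scaling. The share of contacts without a named gene ran from 46.1% on chromosome 7 to 65.8% on chromosome 14.

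**Figure D1:**
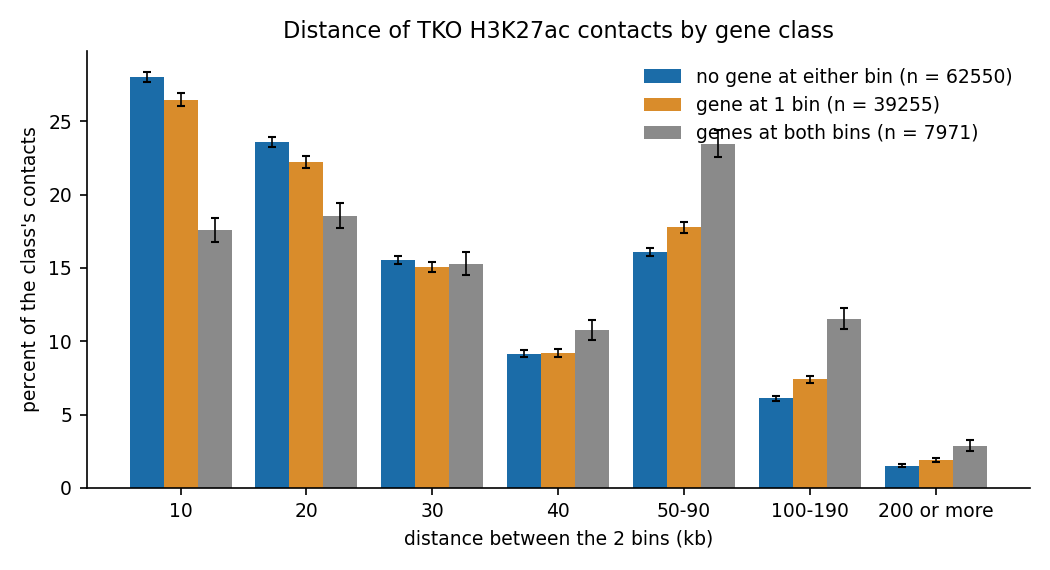
Percent of the contacts of each class (vertical axis) by the distance between the bins in kb (horizontal axis), with Wilson 95% intervals as bars, over both TKO lists together. Contacts without a named gene hold the largest share at 10 kb, 28.0%, and the smallest from 50 kb on.

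The longest contacts in both lists linked chr10:27990001-28000000 with chr10:28630001-28640000 over 640 kb. They read 3.56 and 3.90 CPM at 0 h and 5.67 and 3.87 at 24 h. The nearest protein-coding start in the table was that of Themis, a gene of T cell development, 28.4 kb away. The next longest, over 620 kb on chromosome 4 near Zfp987, read 5.78 and 8.04 CPM at 0 h and 4.75 and 4.06 at 24 h. The third, over 530 kb on chromosome 14 near Tsc22d1, read 5.45 and 6.64 and then 5.85 and 5.88. None of the 3 was called between times in edgeR's quasi-likelihood test (adjusted p = 0.411, 0.138 and 0.975).

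A called H3K27ac peak lay at both bins in 25580 of the 52047 contacts of the 0 h list (49.1%) and in 22578 of the 47848 of the 24 h list (47.2%). In the rest a peak lay at 1 bin, and every listed contact had a peak of its own time at 1 bin or both. Peaks at both bins were more frequent where genes were named: 56.7% at 0 h with a gene at 1 bin and 75.9% with genes at both. Contacts without a named gene that had peaks at both bins were longer, with a median of 30 kb against 20 kb. More of them were in the 24 h list too, 78.4% against 65.4%. Of the 14702 contacts in the 0 h list alone, 2521 (17.1%) had no 24 h peak at either bin. Every contact of the 24 h list had a 24 h peak, so these may be missing from it whatever their strength.

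Nearly all of these contacts stayed inside a topological domain as the authors' ES Hi-C domain list draws them. Both bins fell in the same ES domain in 96.4% and in different domains in 1.49%, against 2.62% with a gene at 1 bin and 3.37% with genes at both. In the MEF domains, 2.45% crossed a boundary. The classes were not matched on distance here.

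The contacts formed small groups around shared bins. They used 38784 bins, with a median of 2 contacts a bin, and 1770 bins (4.56%) had 10 or more. Although no gene was named at their own bins, 18685 of these bins (48.2%) had another listed contact to a gene bin. In 30325 contacts (48.5%) both bins contacted the same gene bin, which closes a triangle of 2 bins without a name and 1 with a gene. Of the contacts with a gene bin reached from both ends, 63.2% had peaks at both bins and 67.8% were in both TKO lists, against 33.7% and 48.8% of the 14944 contacts that reached no gene bin. The largest connected group held 104 bins along chr19:36820001-38440000, a chromosome where 1140 of 3516 contacts remain under 1 count cutoff.

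The bin with the most contacts without a named gene was chr14:99350001-99360000, with 40, of which 30 were in the 0 h list and 31 in the 24 h list. Its neighbour chr14:99340001-99350000 had 37. Neither lay in a protein-coding gene body, and each had a listed contact to 1 gene bin. In the start table, which is incomplete, the nearest protein-coding start was 250 and 240 kb away, that of the exosome ribonuclease gene Dis3. A nearer start that the table lacks would not be seen. These bins had 16 and 17 contacts in the ES H3K27ac list and none in the MEF H3K27ac list. Next came chr19:53050001-53060000, 11.3 kb from the start of the aminopeptidase gene Xpnpep1, and chr19:55710001-55720000, 21.8 kb from that of the Wnt pathway transcription factor gene Tcf7l2, with 35 each. The fifth bin in this order had 34. No contact of the chromosome 14 bins was called between times.

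In strength the contacts without a named gene differed little from the others. Their median was 6.33 and 6.56 CPM in the 0 h samples and 6.32 and 6.50 in the 24 h samples, and that of gene-bearing contacts was 6.33, 6.55, 6.32 and 6.55. Against gene-bearing contacts of the same chromosome and distance, the median log2 CPM was lower by 0.03 to 0.05 in all 4 samples, a mean difference of -0.04 ± 0.01 (SD, n = 4). The exact two-sided sign-flip test gave p = 0.125, the smallest that 4 samples allow. Among reads of pairs in both TKO lists, contacts without a named gene held 55.1% ± 0.0809 at 0 h and 55.3% ± 0.135 at 24 h (SD, n = 2 each). The samples of the times did not overlap, and the exact permutation test gave p = 0.333, the smallest that 2 against 2 allow. With all 6 libraries kept separate they overlapped (exact permutation p = 0.2).

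By the mean over the samples of both times, the strongest contact of both lists joined the first Mir290 bin to the bin before it, chr7:3200001-3210000 and chr7:3210001-3220000. It read 112 and 129 CPM in the 0 h samples and 81.5 and 103 in the 24 h samples, a log2 difference of -0.28 ± 0.10 (SE, adjusted p = 0.106), with both 24 h samples below both 0 h samples. In ES cells it read 112 and 106 CPM, and it was not in the MEF H3K27ac list. The ES KLF4 list held it at 9.69 CPM in libraries 1 and 2 and 27.6 in libraries 3 and 4, so the KLF4 level rests on which libraries are read. The 2 Mir290 bins together took part in 17 contacts, none of which was in the MEF H3K27ac list or called between times. They were listed in ES H3K27ac in 14 cases, among them the 20 kb contact chr7:3200001-3210000 with chr7:3220001-3230000 at 38.03 and 37.5 CPM.

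The next by this mean lay over the start of Myo10, a myosin of filopodia, at chr15:25750001-25760000 and chr15:25760001-25770000. It read 97.6 and 116 CPM at 0 h and 92.0 and 105 at 24 h, with overlapping samples. It was in the MEF H3K27ac list too, at 10.3 ± 1.08 CPM against 120 ± 8.32 in ES (SD, n = 2 each). The third joined the most connected chromosome 14 bins at 102 and 117 CPM at 0 h and 88.8 and 92.3 at 24 h. The fourth, chr10:108280001-108290000 with the bin after it, 32.2 kb from the start of the apoptosis regulator gene Pawr, read 114 and 129 CPM at 0 h and 71.3 and 76.9 at 24 h. It was the only called contact of these 5, lower by a log2 difference of -0.64 ± 0.10 (SE, edgeR adjusted p = 1.56e-07). The fifth, on chromosome 19 near Xpnpep1, read 94.0 and 94.9 CPM and then 96.0 and 96.9.

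Contacts without a named gene changed at 24 h in both directions, more of them down than up. Of 37345 in both lists, edgeR's quasi-likelihood test over all 67728 common pairs called 261 higher and 846 lower at 24 h (adjusted p under 0.05). Over all pairs tested, 2.62% were called, 0.576% higher and 2.04% lower. For contacts without a named gene the shares were 2.96%, 0.699% and 2.27%, with a median log2 difference of 0.02 against 0.01 over all pairs. With a gene at 1 bin, 113 were higher and 469 lower of 25142, and with genes at both 16 and 69 of 5241. The called rises had a median of 0.72 and the called falls of -0.66.

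The count depended on the tool, the scaling and single libraries. DESeq2, which left the adjusted p of 35567 as NA, called 1 higher and 65 lower. Without the TMM factors 101 were higher and 1569 lower, and the median over all tested pairs moved from 0.01 to -0.10. Leaving out 0 h library 1 or 2, or 24 h library 1, 2 or 3, left 727, 730, 707, 642 and 633 calls. Fewer cells with a contact and a weaker contact in each cell cannot be told apart in bulk samples. A test of pairs in both lists does not see contacts that left or entered a list.

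Of the 4 largest falls, 2 lay over 200 kb from the nearest protein-coding start in the table. The contact of chr2:55210001-55220000 with the next bin read 16.7 and 19.4 CPM at 0 h and 4.98 and 5.37 at 24 h, a log2 difference of -1.71 ± 0.16 (adjusted p = 3.59e-23). Its nearest protein-coding start in the table, of the potassium channel gene Kcnj3, was 206 kb away. The contact of chr11:46530001-46540000 with chr11:46560001-46570000 fell from 15.4 and 17.7 CPM to 5.46 and 6.17 (-1.44 ± 0.17, adjusted p = 2.7e-13), and it was in no other list. In it, the first bin had a peak at 0 h only.

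Over 280 kb, chr4:141280001-141290000 and chr4:141560001-141570000 fell from 9.64 and 10.7 CPM to 3.31 and 3.90 (-1.44 ± 0.21, adjusted p = 1.7e-08). The nearest start in the table was 11.2 kb away, that of Epha2, an ephrin receptor. The contact of chr16:25030001-25040000 with chr16:25060001-25070000, 217 kb from the start of Tprg, fell from 15.8 and 18.2 CPM to 6.97 and 4.86 (-1.39 ± 0.20, adjusted p = 1.49e-08). In these 4 contacts every 24 h sample lay below every 0 h sample by the rule that chose them, and none was in a KLF4, Hi-C or MEF list.

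The 4 largest rises lay inside a gene body or within 1 bin of a protein-coding start. The 20 kb contact of chr17:56680001-56690000 with chr17:56700001-56710000, in the body of the nuclear export gene Ranbp3, rose from 7.29 and 6.75 CPM to 13.46 and 17.1 (1.20 ± 0.21, adjusted p = 4.05e-06). The contact of chr19:9920001-9930000 with chr19:9970001-9980000, 0.6 kb from the start of the ferritin heavy chain gene Fth1, rose from 4.72 and 4.90 to 7.54 and 13.6 (1.13 ± 0.26, adjusted p = 0.00777). That call rested on single libraries: it was lost without 0 h library 2 (adjusted p = 0.0893) and without 24 h library 2 (adjusted p = 0.38, log2 difference 0.74).

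In the body of Fam214a, chr9:74990001-75000000 and chr9:75020001-75030000 rose from 6.80 and 7.68 CPM to 13.8 and 15.8 (1.11 ± 0.17, adjusted p = 1.56e-07). In the body of the solute carrier gene Slc22a23, chr13:34240001-34250000 and chr13:34290001-34300000 rose from 5.29 and 3.23 to 7.96 and 8.31 (1.09 ± 0.24, adjusted p = 0.00116). None of the 4 rises was in a KLF4 list, and all 4 were in the ES H3K27ac list.

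**Figure D2:**
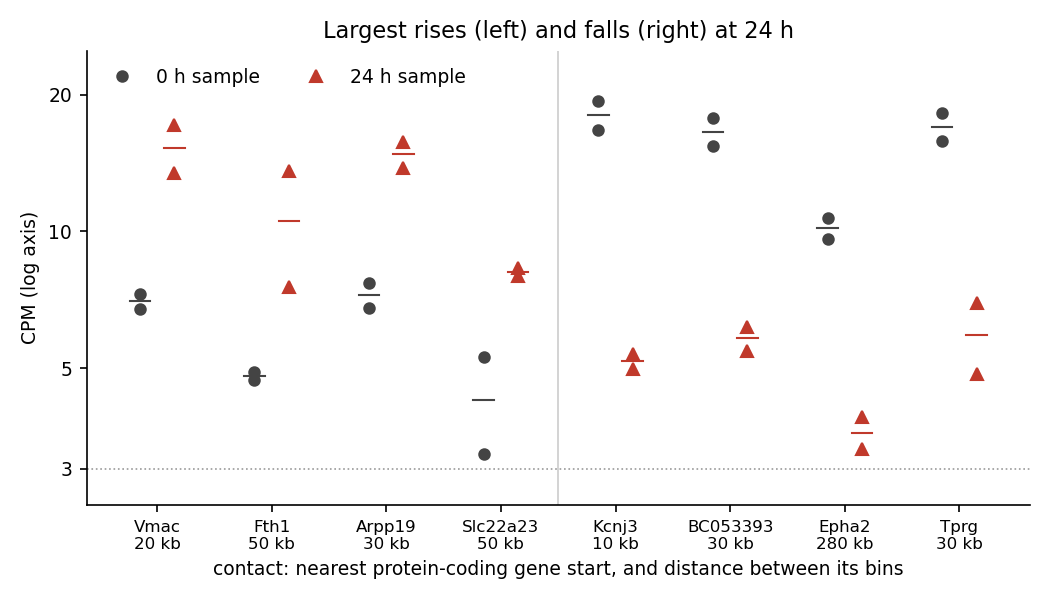
CPM on a log axis of the 4 largest rises and 4 largest falls at 24 h. Contacts are named by the nearest protein-coding start in the table, with the distance between the bins. Points are samples (2 a time), short lines are means, and the dotted line is the list cutoff of 3 CPM. The contact near Kcnj3 goes from 16.7 and 19.4 to 4.98 and 5.37, and the 24 h samples of the contact near Fth1 lie furthest apart.

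Some called contacts shared bins, but most groups were single contacts. The 846 falls formed 467 groups, 299 of them single contacts, and the 261 rises into 204, of which 167 were single. The largest group of falls held 12 contacts over chr2:17930001-18030000, with log2 differences from -1.07 to -0.49. All 12 were in the ES H3K27ac list, 3 in the ES KLF4 list and none in the MEF H3K27ac list. The largest group of rises held the 8 contacts over chr13:34240001-34310000 in Slc22a23, from 0.60 to 1.09, with none in the ES KLF4 list. Of all 37345 contacts tested, 67.4% were in the ES H3K27ac list, 20.1% in the ES KLF4 list and 20.2% in the MEF H3K27ac list. Contacts of a group share bins and are not independent.

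The falls at 24 h were more frequent among contacts that the ES KLF4 list also held. Of 7522 such contacts 427 (5.68%, Wilson 95% interval 5.18 to 6.22) were called lower and 49 higher, with a median log2 difference of -0.06. Of 29823 outside that list 419 (1.40%, 1.28 to 1.54) were called lower and 212 higher, with a median of 0.03. The listed contacts were also stronger, with a median of -0.96 against -1.47 on edgeR's log2 CPM scale, and strong contacts were called more often. In the strongest quartile, 9.68% of 3738 listed contacts and 4.48% of 5599 others were called lower, and in the weakest 0.12% of 834 and 0.129% of 8502. In the second weakest the shares were 2.03% and 0.506%, and in the second strongest 2.27% and 1.52%. The median log2 differences in the strongest quartile were -0.10 and -0.02. Listed contacts were stronger within it too, with a median of -0.44 against -0.68, so the quartiles do not fully match strength. Gene-bearing contacts of the strongest range gave 6.17% of 4244 and 4.39% of 3350. In the weaker ranges, from the weakest up, they gave 0.241% and 0.148%, 0.509% and 0.356%, and 0.994% and 1.27%. The difference between the listed and the other contacts was described, not tested.

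**Figure D3:**
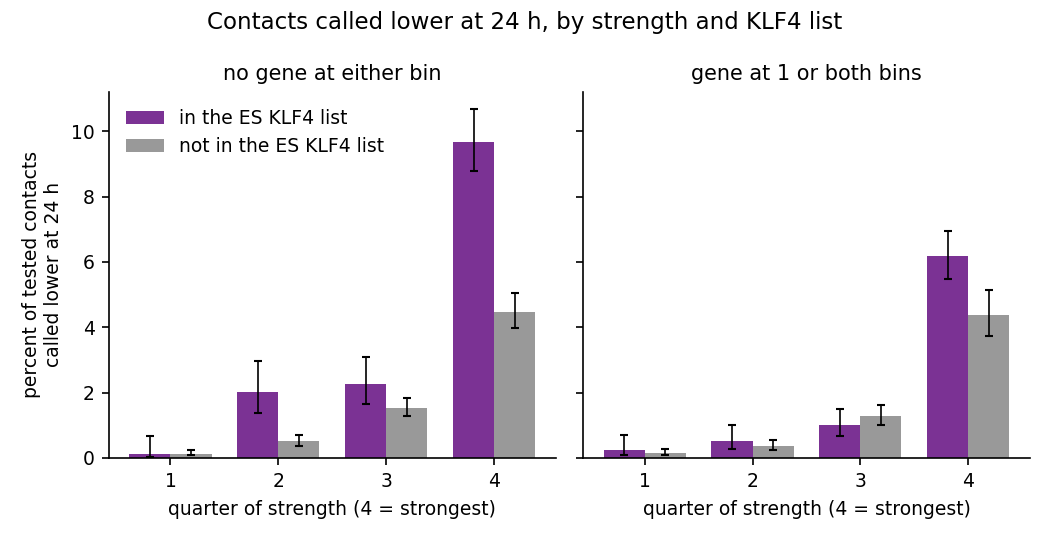
Percent of contacts tested between times that were called lower at 24 h (vertical axis), by quartile of strength of the contacts without a named gene (horizontal axis, 4 is the strongest), for contacts in the ES KLF4 list and not in it, with Wilson 95% intervals. Among contacts without a named gene the strongest quartile reads 9.68% and 4.48%.

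The count in listed contacts was also sensitive to single libraries: without 24 h library 1, 2 or 3 it was 277, 260 and 271. Summed over the common contacts without a named gene, KLF4-listed contacts held 29.3% and 29.4% of the reads in the 0 h samples and 27.6% and 28.1% in the 24 h samples. The samples did not overlap, and the exact permutation test gave p = 0.333, the smallest possible. For gene-bearing contacts the share went from 40.8% ± 0.0175 to 39.8% ± 0.306 (SD, n = 2 each).

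The falls were also counted by presence in the day 3 KLF4 list. Contacts in both the ES and the day 3 KLF4 lists were called lower in 6.30% of 2223, those in the ES list only in 5.42% of 5299, those in the day 3 list only in 1.30% of 2378, and those in neither in 1.41% of 27445. These shares were not tested against each other. By the H3K27ac lists, contacts in ES but not MEF were called lower in 654 of 19365 (3.38%) and those in both in 121 of 5816 (2.08%). Contacts in MEF but not ES were called lower in 7 of 1718 (0.407%), and those in neither in 64 of 10446 (0.613%). Median strengths were -1.31, -1.11, -1.49 and -1.62 in that order, on edgeR's log2 CPM scale. Gene-bearing contacts gave 2.28%, 1.69%, 0.105% and 0.422%. By the Hi-C lists, listed contacts were called lower less often than the others. For ES Hi-C the shares were 1.36% of 19432 listed and 3.24% of 17913 others, with median strengths of -1.37 and -1.41. For MEF Hi-C they were 1.58% of 15148 and 2.73% of 22197. Gene-bearing contacts gave 1.21% and 2.38% by ES Hi-C. These differences were not tested either. Contacts with a 0 h peak at both bins were called lower in 3.797% of 20043, and those with a peak at 1 bin in 0.491% of 17302. The former were also stronger, with a median of -1.23 against -1.52 on the same scale. Gene-bearing contacts gave 2.65% and 0.267%.

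Of the 37345 contacts tested, 33423 (89.5%) had no change in the number of bins with a peak. Among these, 241 (0.721%) were called higher and 782 (2.34%) lower. Where 24 h had more bins with a peak than 0 h, 14 (0.773%) were called higher and 2 (0.11%) lower of 1812, with a median log2 difference of 0.12. Where it had fewer, 6 (0.284%) were higher and 62 (2.94%) lower of 2110, with a median of -0.05. The peak calls and the contacts were measured on the same mark at the same times, and the part of the peaks in the contact changes was not tested.

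Contacts listed at 1 time alone have values at that time only and give no fold. The 3 strongest of the 0 h list alone were adjacent bins on chromosome 19, in the body of the polarity kinase gene Mark2 (27.9 and 25.6 CPM), in that of the neuronal secreted protein gene Lgi1 (29.3 and 23.0) and 109 kb from the homeobox gene Tlx1 (25.3 and 23.4). Their rank rests on the scaling by chromosome described above, under which chromosome 19 reaches lower counts. All 3 had a 0 h peak at 1 bin and no 24 h peak at either. The 3 strongest of the 24 h list alone were adjacent bins over chr11:3140001-3180000, in the body of the centrosomal protein gene Sfi1, at 104 to 137 CPM (means of 2 samples). Each had a 24 h peak at 1 bin and no 0 h peak. In Hi-C the same pairs read 989 to 1944 units, where the Hi-C libraries' median over contacts without a named gene was 41.3 to 43.6. The pairs were in KLF4 lists as well, the first at 115 ± 7.16 CPM in ES cells (SD, n = 2). The stretch was therefore high in several assays, and its part in the 24 h list was not tested. No TKO list held a contact without a peak of its own time. The contacts named here may thus be missing from the other list whatever their strength.

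The contacts at the Sox2 start are described as an example next to a known gene, chosen after their values were seen. Sox2 is controlled in ES cells by a distal enhancer cluster downstream of the gene, known as the Sox2 control region. Its start bin, chr3:34640001-34650000, had 9 contacts without a named gene, and 3 of them went to consecutive bins over chr3:34740001-34770000, with the highest levels at the farther 2 of these. With chr3:34750001-34760000, 110 kb away, it read 13.1 and 15.3 CPM at 0 h and 9.12 and 9.26 at 24 h, and this was called lower (-0.56 ± 0.16, edgeR adjusted p = 0.0231).

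With chr3:34760001-34770000 the same bin read 13.4 and 14.1 CPM and then 8.90 and 9.76 (-0.49 ± 0.16, adjusted p = 0.0688), and with chr3:34740001-34750000 6.41 and 6.52 and then 4.84 and 3.47 (-0.50 ± 0.22, adjusted p = 0.274). The contact with the adjacent downstream bin read 10.7 and 10.1 CPM and then 9.91 and 6.78 (adjusted p = 0.757). Of these 4 contacts the one over 110 kb alone passed the threshold. The other 5 contacts, 3.21 to 6.52 CPM at 0 h, were in the 0 h list alone. None of the 9 was in the MEF H3K27ac list or in the ES or day 3 KLF4 list.

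The Fgf4 start bin, chr7:144860001-144870000, had 8 contacts, all in both lists. The strongest, with the adjacent upstream bin, fell from 60.3 and 66.5 CPM to 42.5 and 47.1 (-0.38 ± 0.10, adjusted p = 0.0164). The downstream neighbour read 37.5 and 34.8 and then 26.6 and 28.6 (-0.25 ± 0.12, adjusted p = 0.285). Both were in the ES and day 3 KLF4 lists and in both Hi-C lists, but not in the MEF H3K27ac list. At Nr5a2, a nuclear receptor gene, none of the 11 contacts of chr1:136950001-136960000 was called. The largest fall there, over 20 kb, was from 19.3 and 21.6 CPM to 14.4 and 14.7 (-0.39 ± 0.12, adjusted p = 0.0583).

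**Figure D4:**
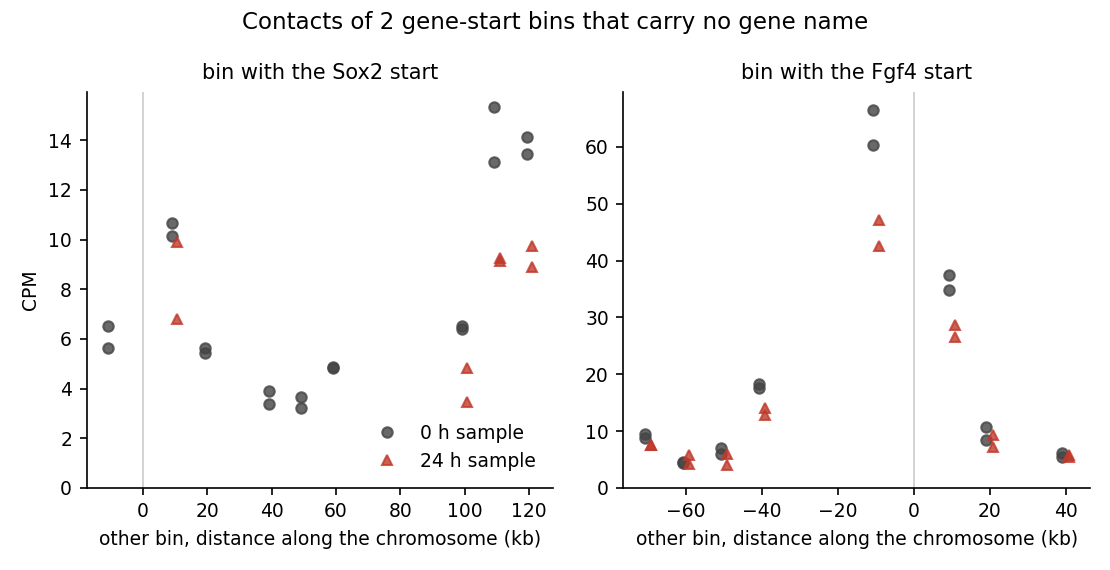
CPM of each contact without a named gene (vertical axis) of the bins that hold the Sox2 and the Fgf4 start, by the distance of the other bin along the chromosome in kb (horizontal axis, 0 is the start bin); points are samples, 2 a time, and contacts without triangles were in the 0 h list alone. At Sox2 the contact over 110 kb reads 13.1 and 15.3 at 0 h and 9.12 and 9.26 at 24 h.

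Contacts without a named gene were found around genes of all 3 lists examined, to different extents. Within 200 kb of the start lay a median of 41 for the 17 pluripotency genes with a start in the table, 1.5 for 16 fibroblast genes and 7 for 15 regulators of other lineages. Over all 17274 genes in the table the median was 8, and 76.2% had at least 1. All 17 pluripotency genes had at least 1 such contact. The highest counts were at Esrrb (86), Nanog (80) and Klf2 (74), which encode transcription factors of naive pluripotency. Of the fibroblast genes 9 had one and 7 had none, led by Snai1 (14), a factor of mesenchymal transition, S100a4 (8), and Pdgfra and Col1a2 (6 each). Of the lineage regulators 11 had one and 4 had none, led by Sox1 (57), Olig2 (26) and Neurog2 (23), with Gata2 and Mesp1 next (21 each).

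At 24 h the contacts around the pluripotency genes were called 3 times higher and 19 times lower of 601 tested (3.66%), near the 2.96% of all contacts without a named gene, with a median log2 difference of -0.01. By gene the falls were 5 of 25 at Tet2, a DNA demethylation enzyme, 4 of 47 at Sox2, 3 of 69 at Esrrb and 2 of 71 at Nanog. Mycn had 2 of 57 higher. Of 25 contacts around fibroblast genes none was called, and of 111 around lineage regulators 1 was higher and 1 lower.

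Within each assay, more of these bin pairs were in the ES list than in the list of MEF or of reprogramming cells. The ES H3K27ac list held 31710 of the 62550 (50.7%), which was 42.0% of that list. The ES Hi-C list held 30180 (48.2%), which was 9.47% of it. The MEF Hi-C list held 23115 (37.0%; 10.1% of it) and the MEF H3K27ac list 10356 (16.6%; 17.0% of it). Among KLF4 lists, the ES list held 8795 (14.1%; 35.8% of it), the day 3 list 5913 (9.45%; 24.9% of it) and the much shorter day 6 list of 4047 pairs 1215 (1.94%; 30.02% of it).

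In the 5 HiChIP lists contacts without a named gene were found less often than those with genes. In the ES H3K27ac list the shares were 50.7%, 64.9% with a gene at 1 bin and 73.7% with genes at both. In the ES KLF4 list they were 14.1%, 22.1% and 25.6%. Weighting gene-bearing contacts to the same chromosomes and distances left 66.8% and 23.7%. In the Hi-C lists the shares lay closer together or in the opposite order, 48.2%, 48.3% and 49.8% in ES Hi-C and 37.0%, 31.7% and 31.4% in MEF Hi-C.

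**Figure D5:**
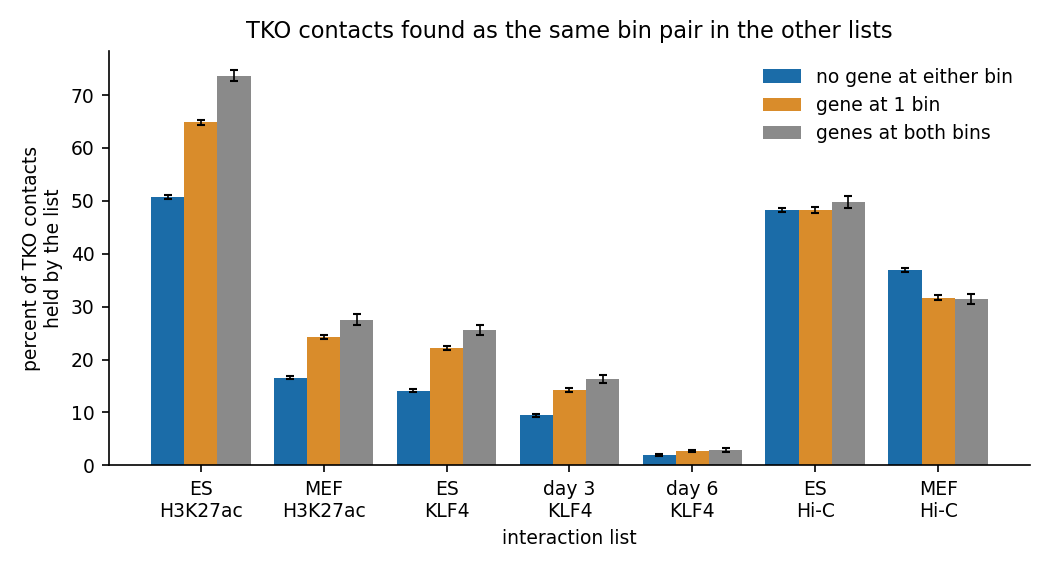
Percent of the TKO contacts of each class (vertical axis) that the other interaction lists (horizontal axis) hold as the same bin pair, with Wilson 95% intervals. The blue bars, contacts without a named gene, are the lowest in the 5 HiChIP lists, 50.7% in ES H3K27ac, and the highest in MEF Hi-C, 37.0%.

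Presence in the ES H3K27ac list differed with the TKO lists and the peaks. Of contacts in both TKO lists 67.4% were in the ES H3K27ac list, of those at 0 h alone 28.8% and at 24 h alone 21.8%. With peaks at both bins the share was 62.5%, and with a peak at 1 bin 39.1%. In MEF H3K27ac the latter shares were 15.7% and 17.3%, and in ES Hi-C, where the order was the opposite of that in ES H3K27ac, 45.4% and 51.0%. The ES Hi-C list held 36.7% of contacts at 0 h alone and 51.0% of those at 24 h alone. Of all 62550, 12758 (20.4%) were in none of the 7 other lists, 12633 (20.2%) in Hi-C lists only, and 199 (0.318%) in all 7.

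A small set of contacts was in nearly all lists. The ES and MEF H3K27ac, ES and day 3 KLF4 and both Hi-C lists together held 632 (1.01%). The strongest, chr18:61610001-61620000 with the next bin, read 78.3 and 74.9 CPM at 0 h, 70.9 and 82.6 at 24 h, 59.7 ± 5.33 in ES and 18.5 ± 2.33 in MEF (SD, n = 2 each). The next joined chr12:87300001-87310000 to chr12:87310001-87320000 in the body of Sptlc2, a subunit of the enzyme that starts sphingolipid synthesis. It read 64.9 and 71.1 CPM at 0 h, 66.5 and 69.5 at 24 h, 37.7 ± 2.10 in ES and 6.57 ± 1.18 in MEF. The third, on chromosome 17, 112 kb from the lens crystallin gene Cryaa, read 57.6 and 60.4, then 59.4 and 64.3, with 46.2 ± 0.628 in ES and 10.9 ± 0.0955 in MEF. None of the 3 was called between 0 h and 24 h (adjusted p = 0.805, 0.767 and 0.585).

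Between MEF and ES, 6711 contacts without a named gene were in both H3K27ac lists. In edgeR's test over all 17901 common pairs, of which 32.0% were called, 1180 of them (17.6%) were higher in ES and 1105 (16.5%) lower. Over all pairs the shares were 17.6% higher and 14.4% lower. With a gene at 1 bin the calls were 1492 higher and 859 lower of 7578, and with genes at both 473 and 141 of 1964. Median log2 differences were -0.06, 0.04 and 0.18 in that order. Without TMM factors the contacts without a named gene split into 1777 higher and 627 lower, with chromosome totals into 1698 and 618, and the median over all tested pairs went from -0.04 to 0.21 without TMM, so the balance of directions depends on the scaling. Without MEF library 2 the calls were 1325. The TKO lists chose these contacts, and TKO cells are of the ES line, so the set leans to contacts present in ES.

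The largest difference upward was in the body of Macf1, a cytoskeletal linker gene, between chr4:123620001-123630000 and chr4:123650001-123660000. It read 3.20 and 3.59 CPM in MEF and 44.3 and 43.8 in ES (3.504 ± 0.17, adjusted p = 2.87e-22). The contact near Pawr described above read 7.21 and 5.12 in MEF and 85.8 and 84.8 in ES (3.49 ± 0.15, adjusted p = 3.48e-25). Downward, chr11:86570001-86580000 with chr11:86650001-86660000, near the autophagy gene Vmp1, read 23.8 and 36.4 in MEF and 3.09 and 3.42 in ES (-3.29 ± 0.18, adjusted p = 2.89e-20). On chromosome 18, chr18:36400001-36410000 with chr18:36490001-36500000 read 17.9 and 21.9 in MEF and 3.73 and 4.71 in ES (-2.58 ± 0.22, adjusted p = 5.59e-14).

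Between day 3 of reprogramming and ES cells, 2506 contacts without a named gene were in both KLF4 lists. edgeR's test over 7387 common pairs called 7.2% of all pairs, 3.02% higher in ES and 4.18% lower. Of the 2506, 80 were higher in ES and 96 lower (7.02%). The median log2 difference was -0.00, with quartiles of -0.23 and 0.22. Gene-bearing contacts gave 137 higher and 142 lower of 3911. The count rested on single libraries: without day 3 library 1, 2 or 3 it was 85, 81 and 45, and without ES library 4 it was 108. Contact totals without TMM gave 98.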

How the data were processed

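HiChIP for H3K27ac or KLF4 (21 libraries) and Hi-C (4) were read as the authors' deposited lists of 10 kb bin pairs. Bowtie2 2.2.3 and mm10 are named in the submitters' processing notes; the pair caller is not given in the sources used here. Per the file headers, the authors' lists give a read count and a CPM for each library and a p-value for each pair. For HiChIP the deposited CPM is relative to the contacts of the same chromosome, as recovered from count and CPM. Hi-C values so named exceed a CPM and were used as signal, per the file headers, with no test. The domain lists' score column, deposited by the authors, was used only to read domains. Counts were tested with edgeR 4.0.16 (quasi-likelihood, TMM on contact totals, filterByExpr, Benjamini-Hochberg over the whole table), in pairs listed in both groups, and with DESeq2 1.42.0 as an alternative. Libraries within sampling noise (chi-square p of 0.05 or more) were joined in groups where another pair of libraries differed, which leaves the day 6 libraries separate. Each comparison used only its groups. The edgeR script was tested on simulated counts, where it recovered 81% of 200 changes of 2-fold for TKO over 67728 pairs. Same-numbered libraries of different groups did not deviate together, so numbers were not used as pairs. The labels call replicates biological. Intervals are Wilson 95% and cover counting error only.

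The contacts, gene lists (24 genes each; 17, 16 and 15 with a RefSeq start) and named items were chosen with earlier results of these data known. Named contacts were the 5 strongest, the 4 largest called rises and falls with no overlap of samples, the 3 strongest of each list alone, the 3 longest, the 3 strongest in 6 other lists, the 4 most connected bins and the 2 largest MEF to ES differences each way. The Sox2, Fgf4, Nr5a2 and microRNA bins were chosen after their values were seen. Alternatives were scaling, filters, distance, DESeq2, joined libraries, a replicate block and single libraries left out.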

Additional observations from a re-analysis of the deposited data

How the results depend on the processing

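Leaving out single libraries gave 633 to 751 calls for TKO 24 h against 0 h (1107 with all), 1325 to 1977 for MEF against ES (2285) and 45 to 194 for day 3 against ES (176). Where this left 1 sample in a group, it was assumed to vary like the others. For falls among ES KLF4-listed contacts (427) the range was 260 to 302. A fit with the replicate number as a block, with libraries separate, gave 1235 calls for TKO and 115 for KLF4, and the block gave 2348 for MEF against ES. Same-numbered libraries correlated at most at 0.03 in their deviations, so the numbers do not pair them.

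Contact totals without TMM gave 1670 (TKO) and 98 (KLF4) calls and 732 KLF4-listed falls, and totals by chromosome 99 and 710. DESeq2 called 66 of 1778 contacts with an adjusted p for TKO (35567 were NA; 1080 at an unadjusted p under 0.05), 1040 for MEF against ES, 24 for KLF4 and 51 KLF4-listed falls, and all 1107 edgeR calls for TKO had the same sign. Pairs of at least 50 kb gave 63, 214, 16 and 12, and non-adjacent pairs 520 and 176 (TKO, KLF4-listed); fewer pairs were tested there. With 6 separate libraries the log2 strength difference was -0.0376 (exact p = 0.03125), which is the smallest 6 allow.

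Peaks at both bins were 49.8% of non-adjacent contacts and 54.4% with 1 count cutoff for all chromosomes. Allowing each bin to lie 1 bin away, 76.5% were in ES H3K27ac, 39.2% in MEF H3K27ac, 41.8%, 28.2% and 8.25% in ES, day 3 and day 6 KLF4, 81.4% in ES Hi-C and 69.8% in MEF Hi-C. At 50 kb or more these were 45.3%, 9.48%, 7.44%, 5.33%, 0.5261%, 42.3% and 25.4%, and among 0 h contacts above the median CPM 72.8%, 22.8%, 26.2%, 14.9%, 3.70%, 50.9% and 42.3%. Within 100 kb, 7 lineage regulators had a contact. Around gene bodies, an alternative added after seeing the data like the KLF4-listed ones, 17 fibroblast and 17 lineage genes of 24 did. The causes of these shifts were not tested.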
